A study of Mus musculus with 20 samples.

Results

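Chemokines are small secreted proteins that draw leukocytes along a gradient by binding G protein-coupled receptors on their surface, and atypical receptors bind the same proteins without that signal and take them up. CXC ligands such as *Cxcl1* and *Cxcl2* attract mainly neutrophils through Cxcr2, the interferon-induced ligands *Cxcl9* to *Cxcl11* attract activated T cells and NK cells through Cxcr3, and CC ligands such as *Ccl2* attract mainly monocytes through Ccr2. In skin, keratinocytes, fibroblasts, endothelial cells and resident macrophages all make chemokines, and tumors of the skin are known to be entered by neutrophils and macrophages. The expression of 39 genes of this family is described here, out of 18193 genes measured: 28 ligands, 8 signaling receptors and 3 atypical receptors. They were taken from a list of family members, and each was read at the probeset, annotated to that gene alone, with the highest mean over 20 arrays. One probeset was available for 23 of the 39 genes, and several for 16.

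Total RNA of whole tissue was hybridized to Affymetrix MOE430 2.0 arrays, 1 for each of 15 skin tumors and 5 normal skin samples, all of FVB strain. Deletion was driven by K14-Cre, which is active in stratified epithelia and not meant to reach stromal or immune cells: 8 tumors came from RbΔEC; Trp53ΔEC mice, which lose *Rb1* and *Trp53* (double-deficient tumors below), and 7 from Trp53ΔEC mice, which lose *Trp53*. The normal skin came from wild type mice aged 2 months, and since the labels give no age for the tumors, age and tumor cannot be told apart. *Rb1* had a lowest, median and highest log2 value of 6.55, 7.40 and 8.14 in double-deficient tumors, 7.85, 8.26 and 8.84 in Trp53ΔEC tumors and 8.95, 9.10 and 9.26 in skin, so that the genotypes overlapped (−0.77, adjusted p = 0.701, limma), and *Trp53* was not analysed here. By histology, 5 tumors were undifferentiated or spindle cell carcinomas (double-deficient tumors 1, 3 and 5 and Trp53ΔEC tumors 1 and 2), 4 were mixed (double-deficient tumor 4 and Trp53ΔEC tumors 3, 5 and 7), and 6 were poorly differentiated (double-deficient tumors 2, 6, 7 and 8 and Trp53ΔEC tumors 4 and 6). Values given for single undifferentiated/spindle carcinomas and for single mixed tumors follow these orders, and those of skin run from sample 1 to sample 5. Levels are log2 RMA values, which run from 2.34 to 14.72 over all probesets, differences between groups are log2 fold changes, and levels of different genes are not compared because each has its own probes. A fold change is given with the standard error (SE) and the adjusted p of limma, Benjamini-Hochberg over all 18193 genes, and a gene is called higher or lower at an adjusted p under 0.05.

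The promoters of 4 ligands are shown first. *Cxcl1*, *Cxcl2* and *Cxcl3* were among the 9 members that did not overlap between the tumor grades (23.1% of members, and 14.3% of all genes). *Cxcl10* was among the 13 of 39 members that were higher in undifferentiated/spindle carcinomas than in skin (22% of all genes were). The windows run from 250 bases before to 50 bases after the annotated start, 5′ to 3′ on the strand of the gene, from RefSeq on GRCm38.p6. All lie on chromosome 5: *Cxcl1* at chr5:90890995-90891294 (plus strand), *Cxcl2* at chr5:90903649-90903948 (plus), *Cxcl3* at chr5:90785851-90786150 (plus) and *Cxcl10* at chr5:92348840-92349139 (minus). Capitals mark matches on either strand to an NF-kB type motif (GGG, any 2 bases, TTTCC) in *Cxcl1*, *Cxcl2* and *Cxcl3*, and to an interferon-response type motif (TTTC, any 2 bases, TTTC) in *Cxcl10*.
Cxcl1: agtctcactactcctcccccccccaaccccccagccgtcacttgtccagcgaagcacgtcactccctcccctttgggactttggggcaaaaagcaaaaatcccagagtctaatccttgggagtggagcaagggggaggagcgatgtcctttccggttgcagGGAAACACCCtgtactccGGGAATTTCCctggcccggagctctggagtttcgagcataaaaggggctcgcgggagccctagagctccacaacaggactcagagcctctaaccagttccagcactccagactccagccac
Cxcl2: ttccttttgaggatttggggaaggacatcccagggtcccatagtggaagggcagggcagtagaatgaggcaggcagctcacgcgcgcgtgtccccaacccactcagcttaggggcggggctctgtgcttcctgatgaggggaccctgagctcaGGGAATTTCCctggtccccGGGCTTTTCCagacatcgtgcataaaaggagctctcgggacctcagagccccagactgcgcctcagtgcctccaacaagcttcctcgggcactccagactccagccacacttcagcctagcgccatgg
Cxcl3: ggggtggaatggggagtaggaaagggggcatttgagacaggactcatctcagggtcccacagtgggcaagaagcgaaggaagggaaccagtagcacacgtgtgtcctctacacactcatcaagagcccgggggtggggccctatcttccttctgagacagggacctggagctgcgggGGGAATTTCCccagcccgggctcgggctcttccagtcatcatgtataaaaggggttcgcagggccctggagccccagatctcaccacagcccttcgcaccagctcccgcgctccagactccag
Cxcl10: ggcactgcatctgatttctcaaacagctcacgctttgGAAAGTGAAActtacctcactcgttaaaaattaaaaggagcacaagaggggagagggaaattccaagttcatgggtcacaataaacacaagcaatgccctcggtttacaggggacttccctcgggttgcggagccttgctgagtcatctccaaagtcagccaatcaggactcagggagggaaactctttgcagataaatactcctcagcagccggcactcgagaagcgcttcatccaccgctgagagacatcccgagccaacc
The run GGGAATTTCC was present in 3 of these windows, with its first base 71, 97 and 73 bases before the start of *Cxcl1*, *Cxcl2* and *Cxcl3*. A window was found for 29 of the 39 genes, 31 windows in all. NF-kB type letters were in 5 of these 29 genes (*Cxcl1*, *Cxcl2*, *Cxcl3*, *Ccl20* and *Ccl9*), and in 1.63% of all 32851 windows of the table. The first is a count of genes and the second a share of windows, and their difference was not tested. *Cxcl1*, *Cxcl2* and *Cxcl3* lie near each other and share the run GGGAATTTCC, so they may not be separate cases. Of the other members without overlap between the grades, *Ccl3*, *Ccl12* and *Cxcr2* had windows without NF-kB type letters, and *Ccl2* and *Ccl7* had no window. Interferon-response type letters were in *Cxcl10* and *Cxcl14* and in 3.44% of all windows. The matches did not overlap each other. A match describes the letters of the window and is no measurement of binding.

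Every member could be tested, and several moved in opposite directions between the tumor grades. Against normal skin, 10 members were higher in the 15 tumors (17.7% of all genes tested were) and 8 were lower (18% of all genes), which is 46.2% of 39 beside 35.7% of all genes. In undifferentiated/spindle against poorly differentiated carcinomas, 5 were higher (12.7% of all genes) and 9 lower (9.9% of all genes), 35.9% beside 22.6% of all genes. The median log2 fold change of the members was 0.51 for tumors against skin and 0.07 for the grades, where that of all genes was 0.02 and 0.01. Groups did not overlap for 5 members (12.8%, and 13.3% of all genes) between tumors and skin, and for 9 members (23.1%, and 14.3% of all genes) between the grades. Each class was also set against the same 5 skin samples: 13 members were higher and 7 lower in undifferentiated/spindle carcinomas (22% and 20.2% of all genes), 5 higher and 13 lower in mixed tumors (21.9% and 21.5%), and 14 higher and 8 lower in poorly differentiated carcinomas (19.2% and 19.6%). The heatmap of all members shows each array.

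**Figure D1:**
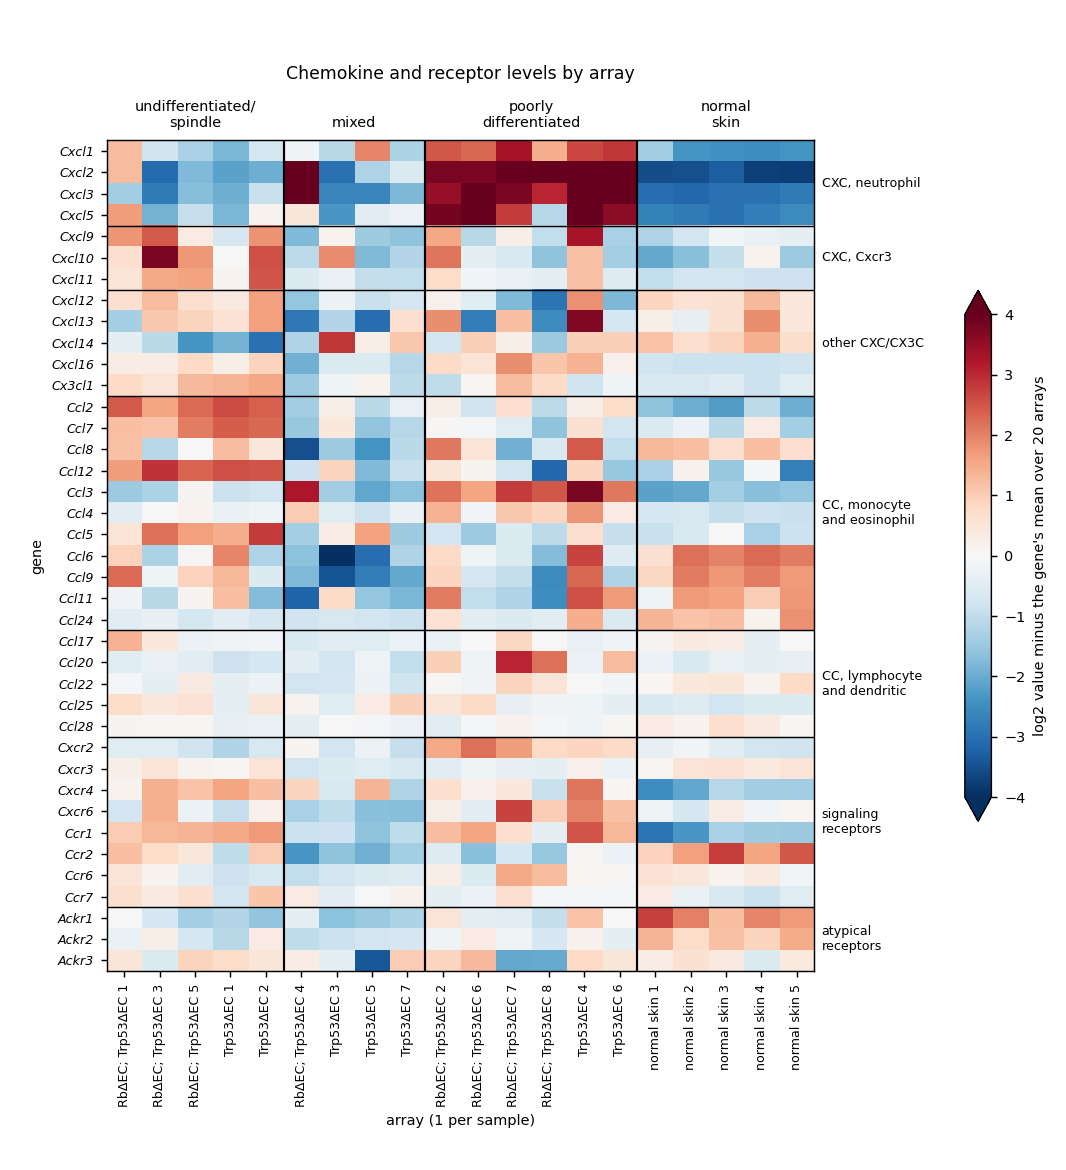
Log2 value of each of the 39 members (rows, grouped by role) on each of 20 arrays (columns, grouped by class), minus the mean of that gene over all arrays, with colors limited to 4 in either direction. *Cxcl2* and *Cxcl3* are high in all 6 poorly differentiated carcinomas and in double-deficient tumor 4, and *Ccl2*, *Ccl7* and *Ccl12* are highest in the 5 undifferentiated/spindle carcinomas.

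The whole tissues differed in make-up, and fewer cells of a type and less RNA per cell cannot be told apart in them. Of 10 neutrophil markers, 6 were lower in undifferentiated/spindle than in poorly differentiated carcinomas and none was higher, and the mean log2 value of the list was 5.80 to 6.50 in undifferentiated/spindle tumors, 5.27 to 7.14 in mixed tumors, 8.0 to 9.53 in poorly differentiated tumors and 5.26 to 5.45 in skin. *S100a8* (−5.90) and *S100a9* (−6.76), the calprotectin subunits that neutrophils and stressed keratinocytes both make, fell most, and the granule genes *Mpo* and *Elane* did not pass the test (−0.04 and −0.12). Of 11 macrophage markers, 5 were higher in undifferentiated/spindle carcinomas, among them *Fcgr1* (2.61) and *Adgre1* (2.36), and 7 of 8 keratinocyte markers were lower. In the same comparison of the grades, 12.7% of all genes were higher and 9.9% lower. Against skin, tumors were lower in 6 of 6 skeletal muscle markers and 4 of 4 adipocyte markers: the mean of the muscle list lay between 4.77 and 9.59 in tumors and 13.43 and 13.82 in skin, and that of the adipocyte list between 4.48 and 7.33 in tumors and 10.36 and 11.05 in skin. The log2 difference between the 3′ and the 5′ probesets of *Actb*, which widens as RNA degrades, was 0.241 to 0.382 in undifferentiated/spindle tumors, 0.383 to 0.66 in mixed tumors, 0.419 to 0.821 in poorly differentiated tumors and 0.502 to 1.193 in skin. The part of these differences in the chemokine results was not tested.

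All 4 ligands that attract neutrophils were higher over all tumors than in skin, and all 4 were lower in undifferentiated/spindle than in poorly differentiated carcinomas. By class, 4 were called above skin in poorly differentiated carcinomas, 2 in mixed tumors and 1 in undifferentiated/spindle carcinomas. *Cxcl3* and *Cxcl5* were called above skin in poorly differentiated carcinomas only. *Cxcl2*, also known as MIP-2, was at 8.32, 3.95, 5.29, 4.89 and 5.09 in undifferentiated/spindle carcinomas and at 10.81 (lowest), 11.07 (median) and 12.41 (highest) in poorly differentiated ones. In skin it was at 3.51, 3.52, 3.75, 3.31 and 3.29. Each poorly differentiated carcinoma was above each undifferentiated/spindle one, and all 15 tumors, with a lowest value of 3.95, a median of 8.32 and a highest of 12.41, were above all skin samples. *Cxcl2* was 56.1-fold lower in undifferentiated/spindle than in poorly differentiated carcinomas (−5.81, SE 0.65, adjusted p = 7.52e-05), and 27-fold higher in tumors than in skin (4.75, SE 1.40, adjusted p = 0.0115). By class, its log2 fold change against skin was 7.84 (adjusted p = 3.72e-06) in poorly differentiated carcinomas, and 2.03 (adjusted p = 0.111) in undifferentiated/spindle ones, where it was not called.

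*Cxcl3*, a further Cxcr2 ligand, showed the largest grade difference of the family. It was at 4.89, 3.45, 4.59, 4.32 and 5.40 in undifferentiated/spindle carcinomas and at 9.32, 10.66 and 12.36 (lowest, median and highest) in poorly differentiated ones. Normal skin had 3.25, 3.15, 3.31, 3.29 and 3.46. The grades were apart without overlap, and 1 undifferentiated carcinoma, double-deficient tumor 3, lay within the skin values. *Cxcl3* was 73.8-fold lower in undifferentiated/spindle than in poorly differentiated carcinomas (−6.21, SE 0.55, adjusted p = 1.46e-05). Over all 15 tumors, with a lowest, median and highest value of 3.45, 5.40 and 12.36, it was higher than in skin by 3.99 (SE 1.48, adjusted p = 0.0409). That call over all tumors was lost without any 1 of 11 arrays (skin 1 to 5, Trp53ΔEC tumors 4 and 6, double-deficient tumors 2, 4, 7 and 8), with an adjusted p of up to 0.0785. The call by grade was kept without each array in turn.

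*Cxcl1*, the mouse gene for KC and the counterpart of the human growth-regulated oncogene ligands, was at 10.28, 8.25, 7.75, 7.23 and 8.37 in undifferentiated/spindle carcinomas and at 10.52, 11.63 and 12.38 (lowest, median and highest) in poorly differentiated ones. Skin had 7.67, 6.69, 6.65, 6.57 and 6.66. The spindle cell carcinoma double-deficient tumor 1 came nearest to the poorly differentiated carcinomas, and the highest skin sample overlapped the lowest tumor. *Cxcl1* was lower in undifferentiated/spindle than in poorly differentiated carcinomas by −3.19 (SE 0.49, adjusted p = 0.000735) and higher in tumors, at 7.23, 10.28 and 12.38, than in skin by 2.95 (SE 0.79, adjusted p = 0.00645). The probeset used is of a kind that can match several transcripts, and the 2 other *Cxcl1* probesets moved the same way (−1.30 and −3.35 by grade). By class, *Cxcl1* was above skin by 1.53 in undifferentiated/spindle carcinomas (adjusted p = 0.0376) and by 4.72 in poorly differentiated ones (adjusted p = 2e-06), and the call in undifferentiated/spindle carcinomas was lost without any 1 of 7 arrays (skin 2 to 5, Trp53ΔEC tumor 2, double-deficient tumors 1 and 3), with an adjusted p of up to 0.12.

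*Cxcl5*, an epithelial ligand of Cxcr2, was at 7.51, 3.95, 4.91, 4.01 and 5.96 in undifferentiated/spindle carcinomas and at 4.69, 9.54 and 11.04 (lowest, median and highest) in poorly differentiated ones. In skin it was at 3.12, 3.01, 2.83, 3.07 and 3.27. One poorly differentiated carcinoma, double-deficient tumor 8, was at 4.69 and within the values of the other grade, whereas all tumors were above all skin samples. *Cxcl5* was lower by grade by −3.76 (SE 1.08, adjusted p = 0.0262) and higher in tumors, at 3.49, 5.96 and 11.04, than in skin by 3.69 (SE 1.11, adjusted p = 0.0134). The call by grade was lost without any 1 of 5 tumors (Trp53ΔEC tumors 1 and 6, double-deficient tumors 3, 5 and 6), with an adjusted p of up to 0.0646. *Cxcr2*, the receptor that neutrophils use for these 4 ligands, differed by grade in the same direction. It was at 4.50, 4.51, 4.19, 3.77 and 4.34 in undifferentiated/spindle carcinomas and at 5.76, 6.17 and 7.19 (lowest, median and highest) in poorly differentiated ones. The difference was −2.03 (SE 0.27, adjusted p = 0.000261), with no overlap. Against skin, which lay between 4.19 and 4.86, *Cxcr2* was higher in poorly differentiated carcinomas (1.79, adjusted p = 2.21e-05) and was not called in undifferentiated/spindle ones (−0.24, adjusted p = 0.504).

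**Figure D2:**
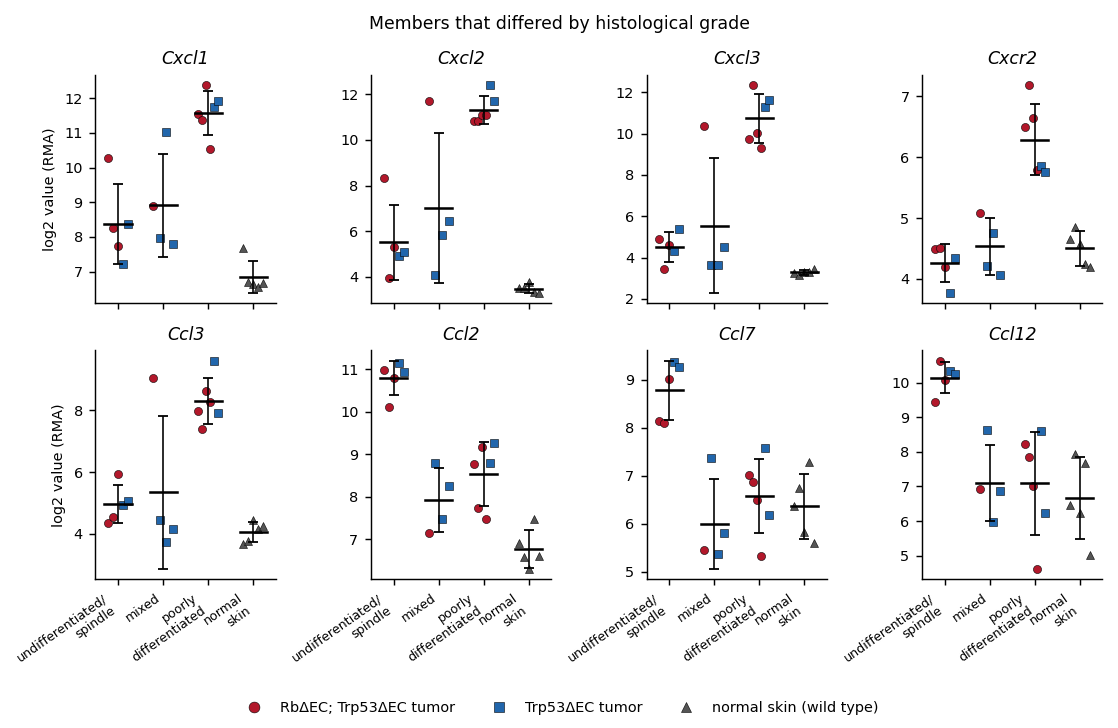
Log2 RMA value (vertical axis, a scale of its own for each gene) of 8 members in undifferentiated/spindle carcinomas (n = 5), mixed tumors (n = 4), poorly differentiated carcinomas (n = 6) and normal skin (n = 5), with 1 point per sample a horizontal line for the mean and whiskers for the SD, and a mark for each genotype. *Cxcl1*, *Cxcl2*, *Cxcl3*, *Cxcr2* and *Ccl3* are higher in all 6 poorly differentiated carcinomas than in any undifferentiated/spindle one, and *Ccl2*, *Ccl7* and *Ccl12* lie the other way.

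The CC ligands of monocytes fell into groups with opposite grade differences, and the monocyte chemoattractant genes *Ccl2*, *Ccl7* and *Ccl12* were higher in undifferentiated/spindle carcinomas. *Ccl2*, or MCP-1, the main ligand of Ccr2, was at 10.98, 10.10, 10.79, 11.15 and 10.93 in undifferentiated/spindle carcinomas and at 7.48, 8.78 and 9.26 (lowest, median and highest) in poorly differentiated ones. Skin had 6.91, 6.58, 6.30, 7.48 and 6.59. All 5 undifferentiated/spindle carcinomas were above all other samples. *Ccl2* was higher by 2.26 by grade (SE 0.34, adjusted p = 0.000663). Against skin it was higher by 4.02 in undifferentiated/spindle carcinomas (adjusted p = 8.31e-08), 1.76 in poorly differentiated carcinomas (adjusted p = 0.00058) and 2.35 over all tumors (SE 0.61, adjusted p = 0.00515).

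*Ccl12*, the mouse MCP-5 gene, was at 9.43, 10.63, 10.08, 10.34 and 10.25 in undifferentiated/spindle carcinomas and at 4.62, 7.43 and 8.60 (lowest, median and highest) in poorly differentiated ones. Its difference by grade was 3.05 (SE 0.62, adjusted p = 0.00438). *Ccl7*, or MCP-3, ran from 8.10 up to 9.37 in undifferentiated/spindle carcinomas, against 5.34 up to 7.57 in poorly differentiated carcinomas, a difference of 2.20 (SE 0.39, adjusted p = 0.00177). Neither gene overlapped between the grades. In undifferentiated/spindle carcinomas both were also higher than in skin (*Ccl12* by 3.49, adjusted p = 0.000407, and *Ccl7* by 2.42, adjusted p = 0.000241), and neither was called in poorly differentiated carcinomas against skin (0.43 and 0.21). *Ccl5*, or RANTES, a ligand of Ccr1 and other receptors that draws T cells and monocytes, was at 7.35, 8.99, 8.45, 8.26 and 9.59 in undifferentiated/spindle carcinomas. In poorly differentiated carcinomas its lowest, median and highest values were 5.33, 5.98 and 7.44. The highest poorly differentiated carcinoma, Trp53ΔEC tumor 4, overlapped the lowest undifferentiated/spindle one, and the difference was 2.41 (SE 0.42, adjusted p = 0.00178).

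*Ccl3* and *Ccl4*, the genes of macrophage inflammatory proteins that draw monocytes and T cells, were lower in undifferentiated/spindle carcinomas. *Ccl3* was at 4.36, 4.55, 5.93, 4.95 and 5.05 there and at 7.40, 8.14 and 9.61 (lowest, median and highest) in poorly differentiated carcinomas. Skin lay between 3.67 and 4.45. The grades did not overlap, and the difference was −3.34 (SE 0.38, adjusted p = 8.89e-05). *Ccl4* was lower by −1.03 (SE 0.30, adjusted p = 0.0265), at 6.28 to 6.83 in undifferentiated/spindle carcinomas against 6.59 to 8.47 in poorly differentiated ones, with an overlap. The *Ccl4* call by grade was lost without any 1 of 5 tumors (Trp53ΔEC tumors 1 and 2, double-deficient tumors 1, 2 and 7), with an adjusted p of up to 0.0647. Over all tumors both were higher than in skin, *Ccl3* by 2.34 (SE 0.90, adjusted p = 0.0477) and *Ccl4* by 1.07 (SE 0.34, adjusted p = 0.0179). By class, both were called higher than in skin in poorly differentiated carcinomas only. The *Ccl3* call over all tumors was lost without any 1 of 13 arrays (skin 1 to 5, Trp53ΔEC tumors 4 and 6, double-deficient tumors 2, 4, 5, 6, 7 and 8), with an adjusted p of up to 0.0993.

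Over all tumors, *Ccl6*, *Ccl9* and *Ccl24* were lower than in skin. By class, *Ccl6* was called lower in mixed tumors only, and *Ccl24* in each class. *Ccl9* was called lower in mixed tumors and in poorly differentiated carcinomas, the latter call lost without double-deficient tumor 8 (adjusted p = 0.0529). *Ccl6* averaged 9.97 in undifferentiated/spindle, 7.36 in mixed and 9.95 in poorly differentiated tumors, and 11.70 in skin. *Ccl6*, a ligand of Ccr1 found in rodents, had a lowest value of 5.70, a median of 9.29 and a highest of 12.57 in tumors, against 10.47, 12.08, 11.85, 12.15 and 11.96 in skin. The groups overlapped, with Trp53ΔEC tumor 4 (12.57) above all skin samples. *Ccl6* was lower in tumors by −2.44 (SE 0.79, adjusted p = 0.0207), a call lost without skin sample 2 or skin sample 4 (adjusted p of up to 0.0532), and its difference by grade was 0.02. *Ccl9*, a further Ccr1 ligand of rodents, was lower in tumors by −2.23 (SE 0.79, adjusted p = 0.0329), and this call was lost without skin sample 2, 3, 4 or 5 (adjusted p of up to 0.0758). *Ccl24*, the eotaxin-2 gene whose product draws eosinophils through Ccr3, was lower by −1.52 (SE 0.30, adjusted p = 0.000542). Its tumor values ran from 6.08 to 8.39 and its skin values from 7.09 to 8.76, with double-deficient tumor 2 (7.51) and Trp53ΔEC tumor 4 (8.39) inside the skin range. *Ccl11*, the eotaxin gene, and *Ccl8*, or MCP-2, were not called over all tumors (−1.55 and −1.36) or by grade (−0.62 and 0.07). By class, both were called lower in mixed tumors than in skin. The *Ccl11* call there was lost without any 1 of 7 arrays (adjusted p of up to 0.124). In the mast cell and eosinophil marker list 5 of 9 genes were lower in tumors (18% of all genes were). The list means lay between 4.73 and 7.19 in tumors and 6.33 and 6.69 in skin, and the part of these markers in the *Ccl24* result was not tested.

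The interferon-induced ligands of Cxcr3 were higher in undifferentiated/spindle carcinomas than in skin for 2 of 3 genes. *Cxcl10*, or IP-10, was at 8.59, 11.69, 9.65, 7.89 and 10.48 in undifferentiated/spindle carcinomas, against 5.86, 6.23, 6.95, 8.07 and 6.47 in skin. One skin sample was above the lowest of these carcinomas. The difference was 2.94 (SE 0.82, adjusted p = 0.00721), and in poorly differentiated carcinomas, between 6.31 and 10.06, it was 1.08 and not called (adjusted p = 0.3). *Cxcl11* was at 5.59 to 7.98 in undifferentiated/spindle carcinomas and 4.49 to 4.73 in skin, without overlap (2.08, SE 0.38, adjusted p = 0.00019), its 0.92 in poorly differentiated carcinomas was a call (adjusted p = 0.0496) lost without any 1 of 15 of the 20 arrays (all but Trp53ΔEC tumors 1, 2 and 6 and double-deficient tumors 1 and 8, adjusted p of up to 0.113), and a second, dimmer *Cxcl11* probeset moved less (0.16 over all tumors, where the one used moved 1.10). *Cxcl9*, with 6.19 to 9.31 in undifferentiated/spindle carcinomas and 5.65 to 6.77 in skin, was not called (1.68, adjusted p = 0.0847). None of the 3 was called by grade or over all tumors. *Cxcr3*, their receptor on T and NK cells, was lower over all tumors than in skin by −0.57 (SE 0.19, adjusted p = 0.024), a call lost without skin sample 2, 3 or 5 (adjusted p of up to 0.0647). By class, *Cxcr3* was called lower than in skin, 6.32 to 6.82, in mixed tumors and in poorly differentiated carcinomas. It was not called against skin in undifferentiated/spindle carcinomas. By grade *Cxcr3* was higher in undifferentiated/spindle carcinomas, 6.33 to 6.79, than in poorly differentiated ones, 5.80 to 6.45 (0.54, SE 0.14, adjusted p = 0.0163), and that call was kept without each array in turn. Of 11 T and NK cell markers, 5 were lower in tumors than in skin (18% of all genes) and 2 were higher by grade (12.7% of all genes). The part of these markers in the *Cxcr3* result was not tested.

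Among the other CXC and CX3C ligands, *Cxcl14*, which keratinocytes of normal skin make, was lower in undifferentiated/spindle carcinomas. It was at 8.42, 7.70, 6.42, 6.86 and 5.77 there, at 7.28, 9.37 and 9.73 (lowest, median and highest) in poorly differentiated carcinomas and between 9.45 and 10.19 in skin. The grades overlapped, and the difference was −1.88 (SE 0.57, adjusted p = 0.0337), a call lost without any 1 of 7 tumors (Trp53ΔEC tumors 1, 2, 4 and 6, double-deficient tumors 5, 6 and 7), with an adjusted p of up to 0.0819. That call was also lost with the median of the *Cxcl14* probesets (−1.57, adjusted p = 0.0549), and the other probeset gave −1.25. Against skin *Cxcl14* was lower in undifferentiated/spindle carcinomas by −2.70 (SE 0.64, adjusted p = 0.00226) without overlap. *Cxcl16*, a membrane-bound ligand of Cxcr6, was higher than in skin in undifferentiated/spindle carcinomas (1.34, adjusted p = 0.000663) and in poorly differentiated ones (1.81, adjusted p = 2.92e-05), with 9.47 to 10.12 and 9.42 to 11.07 against 8.36 to 8.43 in skin. *Cx3cl1*, or fractalkine, was higher in undifferentiated/spindle carcinomas, 7.58 to 8.57, than in skin, 6.17 to 6.55 (1.73, SE 0.37, adjusted p = 0.000988), and its 3 other probesets averaged 7.56, 4.25 and 4.25 in these carcinomas and 6.63, 4.34 and 3.71 in skin. *Cxcl12*, the stromal ligand of Cxcr4, was at 10.35 to 11.63 in undifferentiated/spindle carcinomas, 7.08 to 11.84 in poorly differentiated ones and 10.42 to 11.31 in skin. It was not called by grade (1.73, adjusted p = 0.109), and against skin it was lower in poorly differentiated carcinomas (−1.58, adjusted p = 0.0395), a call lost without any 1 of 8 arrays (skin 1 to 5, Trp53ΔEC tumor 6, double-deficient tumors 7 and 8), with an adjusted p of up to 0.093. *Cxcl13*, which draws B cells, was not called in any of these comparisons and ranged most widely in poorly differentiated carcinomas, 4.14 to 10.62.

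Of the 5 ligands of lymphocytes and dendritic cells, 1 was called by grade, and 1 was higher and 1 lower over all tumors than in skin. *Ccl20*, the ligand of Ccr6, was lower in undifferentiated/spindle carcinomas, 5.19 to 5.76, than in poorly differentiated ones, 5.79 to 9.06, without overlap (−1.70, SE 0.53, adjusted p = 0.0406). This call was lost without any 1 of 9 tumors (Trp53ΔEC tumors 1, 2 and 6, double-deficient tumors 1, 2, 3, 5, 7 and 8), with an adjusted p of up to 0.0838. In 2 poorly differentiated carcinomas, double-deficient tumor 6 (5.81) and Trp53ΔEC tumor 4 (5.79), *Ccl20* was close to the other grade. *Ccl25*, whose product draws developing T cells, was 1.74-fold higher over all tumors than in skin (0.80, SE 0.21, adjusted p = 0.00615). All tumors were above all skin samples, but narrowly, at 5.50 to 6.92 against 5.21 to 5.46. By class, *Ccl25* was called above skin in undifferentiated/spindle and mixed tumors and not in poorly differentiated carcinomas. The call in mixed tumors was lost without Trp53ΔEC tumor 7 (adjusted p = 0.0976). *Ccl28*, a ligand of mucosal and epithelial surfaces, was lower in tumors by −0.42 (SE 0.11, adjusted p = 0.00471), but its 2 other probesets gave 0.05 and 0.03. *Ccl17* and *Ccl22*, the ligands of Ccr4, were not called over all tumors (−0.10 and −0.52) or by grade (0.24 and −0.34). By class, *Ccl20* was above skin in poorly differentiated carcinomas (1.54, adjusted p = 0.00825), and *Ccl22* was below skin in mixed tumors (−1.01, adjusted p = 0.00105) and in undifferentiated/spindle carcinomas (−0.52, adjusted p = 0.0485), where the call was lost without any 1 of 12 arrays (skin 2, 3 and 5, Trp53ΔEC tumors 1, 2, 3, 4 and 7, double-deficient tumors 1 to 4), with an adjusted p of up to 0.132.

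Receptors of myeloid cells changed in opposite directions in tumors. *Ccr1*, the receptor of *Ccl3*, *Ccl5*, *Ccl6* and *Ccl9* on monocytes and neutrophils, had a lowest value of 6.37, a median of 9.21 and a highest of 10.49 in tumors, against 5.05, 5.65, 6.68, 6.55 and 6.49 in skin. Only 1 tumor, the mixed Trp53ΔEC tumor 5 at 6.37, was inside the skin range. *Ccr1* was 5.79-fold higher in tumors (2.53, SE 0.56, adjusted p = 0.00143), and by class it was higher in undifferentiated/spindle (3.29, adjusted p = 2.87e-06) and in poorly differentiated carcinomas (3.05, adjusted p = 5.56e-06), with a grade difference of 0.23 that was not called (adjusted p = 0.744). *Ccr2*, the receptor of *Ccl2*, *Ccl7* and *Ccl12* on inflammatory monocytes, went down. It was at 5.32, 6.96 and 8.87 (lowest, median and highest) in tumors and at 8.57, 9.29, 10.42, 9.23 and 10.14 in skin. Only 2 undifferentiated/spindle carcinomas, double-deficient tumor 1 (8.87) and Trp53ΔEC tumor 2 (8.66), were inside the skin range. *Ccr2* was 5.66-fold lower in tumors (−2.50, SE 0.52, adjusted p = 0.000798), and its grade difference of 1.25 was not called (adjusted p = 0.0581). Of its 3 other probesets, 2 moved by −1.96 and −1.30 in tumors and 1 by −0.26. At these probesets *Ccr2* and its ligand *Ccl2* had log2 fold changes of opposite sign against skin in each class: −1.39 and 4.02 in undifferentiated/spindle carcinomas, −3.67 and 1.14 in mixed tumors, and −2.64 and 1.76 in poorly differentiated carcinomas, all 6 of them called. With the median of the *Ccr2* probesets the value in undifferentiated/spindle carcinomas was −0.69 and not called (adjusted p = 0.0706), and 1 probeset averaged 7.22 there and 7.05 in skin. The call for *Ccl2* in mixed tumors was lost without skin sample 3 or Trp53ΔEC tumor 3 or 7 (adjusted p of up to 0.0954).

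*Cxcr4*, the receptor of *Cxcl12*, was higher in tumors than in skin by 2.26 (SE 0.44, adjusted p = 0.000424), with 6.96, 8.88 and 10.34 (lowest, median and highest) in tumors and 5.70, 6.11, 7.05, 6.81 and 6.80 in skin. One mixed tumor, Trp53ΔEC tumor 7, was inside the skin range. The grade difference of *Cxcr4* was 0.65 and not called (adjusted p = 0.352). *Cxcr6*, on activated T cells and NKT cells, was not called over all tumors (0.16) or by grade (−1.17, adjusted p = 0.175). It was at 3.70 to 4.37 in mixed tumors, below all skin samples at 4.72 to 5.69. Undifferentiated/spindle carcinomas, at 4.49 to 6.82, overlapped skin and were not called against it. Poorly differentiated carcinomas, at 4.98 to 8.09, also overlapped skin. *Cxcr6* was lower than in skin in mixed tumors (−1.30, adjusted p = 0.0485) and higher in poorly differentiated carcinomas (1.23, adjusted p = 0.0444). The call in mixed tumors was lost without any 1 of 13 arrays (skin 1, 3, 4 and 5, Trp53ΔEC tumors 2, 3, 5, 6 and 7, double-deficient tumors 1, 4, 5 and 8) and that in poorly differentiated carcinomas without any 1 of 11 arrays (skin 1 to 5, Trp53ΔEC tumors 2, 4 and 6, double-deficient tumors 5, 7 and 8), with an adjusted p of up to 0.106 in both. *Ccr6*, the receptor of *Ccl20* on B cells and some T cells, was not called over all tumors (−0.38) or by grade (−0.68). In mixed tumors, 5.12 to 5.57, it was lower than in skin, 5.98 to 6.68. That call was lost without any 1 of 4 arrays (adjusted p of up to 0.0723). *Ccr6* was also lower there than in poorly differentiated carcinomas, a call lost without double-deficient tumor 4 (adjusted p = 0.0533). *Ccr7*, which takes dendritic cells to lymph nodes, was not called over all tumors (0.50) or by grade (0.42). In undifferentiated/spindle carcinomas it was higher than in skin, a call lost without any 1 of 8 arrays (adjusted p of up to 0.116).

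The 2 atypical receptors *Ackr1* and *Ackr2* were lower in every tumor than in every skin sample. *Ackr1*, the Duffy antigen receptor on venules and red cells, had 5.35, 6.32 and 8.12 (lowest, median and highest) in tumors, against 9.71, 8.99, 8.18, 8.94 and 8.68 in skin. Its log2 fold change was −2.56 (SE 0.38, adjusted p = 2.46e-05). *Ackr2*, the scavenger of inflammatory CC ligands on lymphatic endothelium, lay between 4.83 and 6.29 in tumors and between 6.70 and 7.43 in skin (−1.50, SE 0.23, adjusted p = 3.55e-05). In each class both were lower than in skin, *Ackr1* by −2.87, −3.10 and −1.93 and *Ackr2* by −1.42, −1.95 and −1.27 in undifferentiated/spindle, mixed and poorly differentiated tumors, and these 6 calls were kept without each array in turn. With the median of its 3 probesets *Ackr2* was not called in poorly differentiated carcinomas (−0.37, adjusted p = 0.0541), and its 2 other probesets moved by −0.41 and −0.73 over all tumors. *Ackr3*, which takes up *Cxcl12*, was not called (−0.28, adjusted p = 0.756), at 6.68 to 11.37 in tumors and 9.48 to 10.66 in skin. Of 10 endothelial markers, 2 were lower in tumors and none was higher (18% and 17.7% of all genes). The mean of that list lay between 5.67 and 7.74 in tumors and 7.04 and 7.25 in skin. The part of these markers in the *Ackr1* and *Ackr2* results was not tested.

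**Figure D3:**
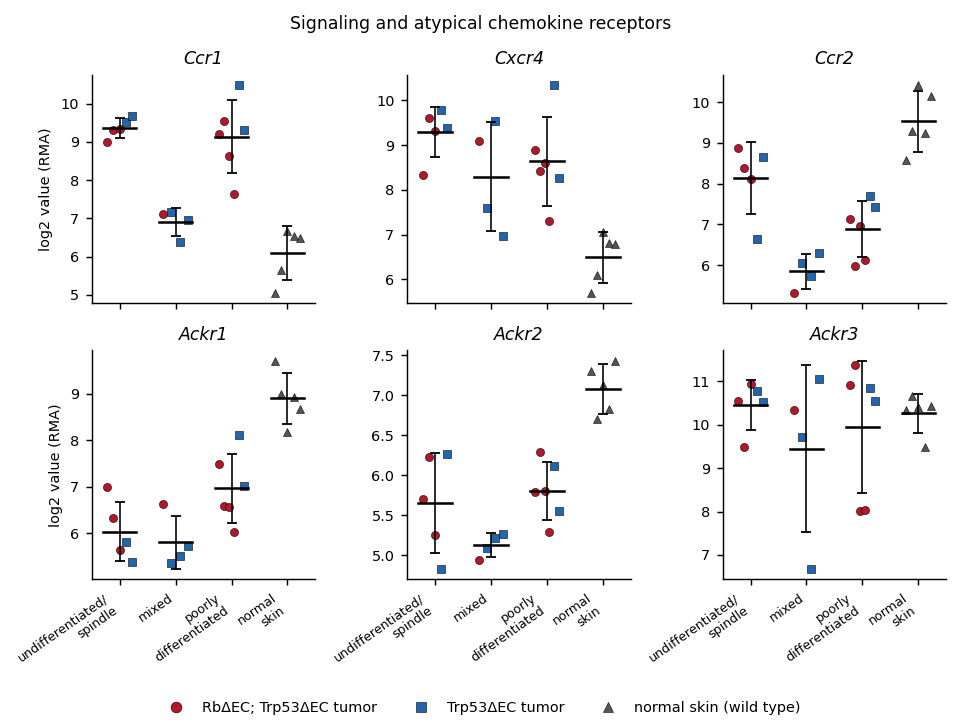
Log2 RMA value (vertical axis, a scale of its own for each gene) of 3 signaling and 3 atypical receptors in undifferentiated/spindle carcinomas (n = 5), mixed tumors (n = 4), poorly differentiated carcinomas (n = 6) and normal skin (n = 5), with 1 point per sample a horizontal line for the mean and whiskers for the SD, and a mark for each genotype. *Ackr1* and *Ackr2* are lower in every tumor than in every skin sample, *Ccr1* is high in both grades and lower in mixed tumors, and *Ackr3* overlaps throughout.

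**Figure D4:**
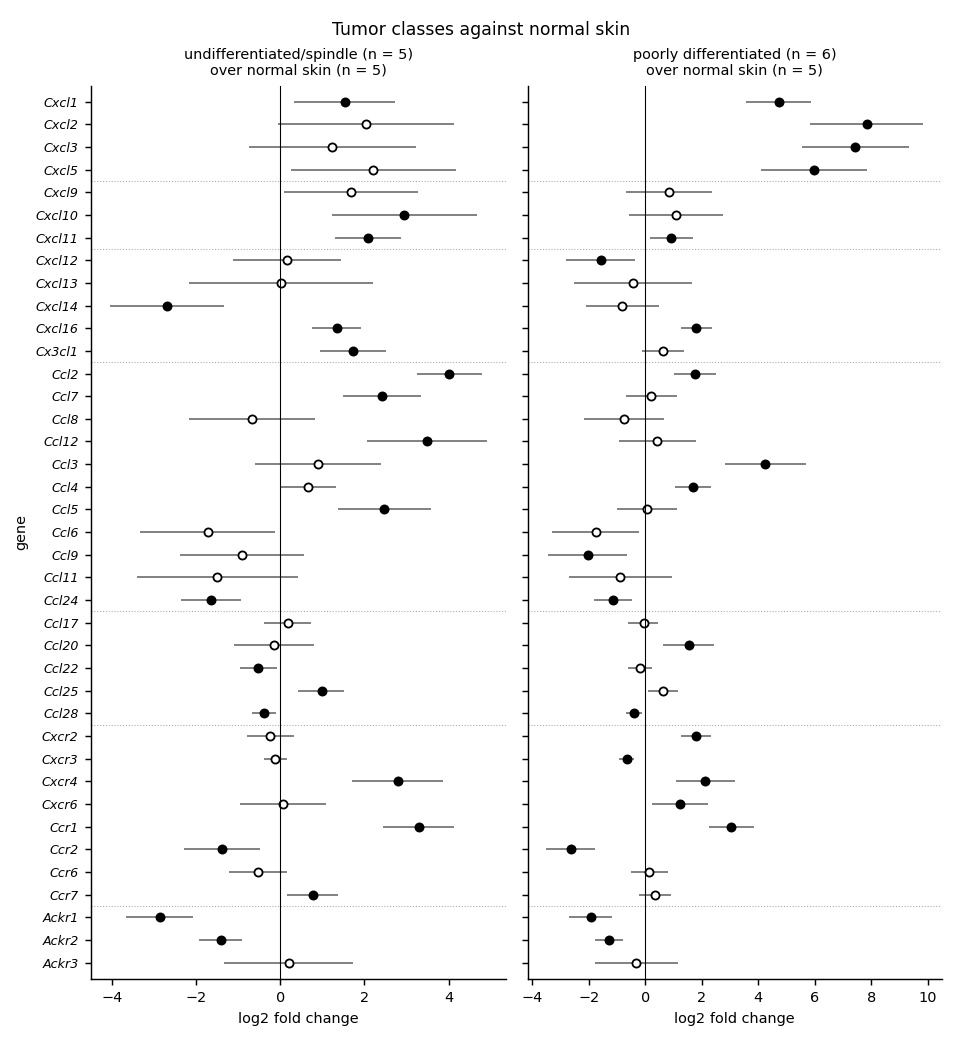
Log2 fold change (horizontal axes, whose scales differ) of each member in undifferentiated/spindle (left, n = 5) and in poorly differentiated carcinomas (right, n = 6) over the same normal skin samples (n = 5), with bars for the 95% interval and filled points for an adjusted p under 0.05. *Cxcl2*, *Cxcl3*, *Cxcl5* and *Ccl3* are filled in the right panel and open in the left, *Ccl7*, *Ccl12* and *Ccl5* are filled in the left and open in the right, and *Ccr1*, *Cxcr4*, *Ackr1* and *Ackr2* are filled in both.

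Mixed tumors held lower levels of many members than either of the other classes, and these 2 contrasts were added after the values had been seen. Against undifferentiated/spindle carcinomas 13 members were lower and 1 higher (10.2% and 9.15% of all genes), and against poorly differentiated carcinomas 17 were lower and none higher (11.9% and 13.5% of all genes), where no member was higher at an unadjusted p under 0.05 either. *Ccr1*, at 7.12, 7.16, 6.37 and 6.96 in mixed tumors, was below every tumor of both other classes (−2.47, adjusted p = 0.000538, and −2.24, adjusted p = 0.000585). *Cxcl16*, at 7.31, 8.63, 8.64 and 8.07, was lower than in undifferentiated/spindle carcinomas by −1.57 (adjusted p = 0.00105) and lower than in poorly differentiated ones by −2.04 (adjusted p = 4.23e-05), again without overlap. Against skin, *Ccl6* (−4.35, adjusted p = 0.000287), *Ccl9* (−4.18, adjusted p = 0.000181) and *Ccl8* (−3.12, adjusted p = 0.00267) were lower in mixed tumors, and *Cxcl1* (2.06, adjusted p = 0.00993) and *Cxcl2* (3.53, adjusted p = 0.0113) were higher, and these 5 calls were kept without each array in turn. The mixed tumors were not alike in the neutrophil ligands: *Cxcl3* was at 10.39 in double-deficient tumor 4 and at 3.64, 3.65 and 4.49 in Trp53ΔEC tumors 3, 5 and 7, and *Ccl3* was at 9.05 in double-deficient tumor 4 and 4.44, 3.74 and 4.17 in the others. The only mixed tumor of the double-deficient genotype was thus within the range of poorly differentiated carcinomas for both genes. *Cxcl14* was the gene that was higher than in undifferentiated/spindle carcinomas (2.47, adjusted p = 0.0158), a call lost without Trp53ΔEC tumor 3 (adjusted p = 0.0602). The mean of 11 macrophage markers was 8.12 to 8.63 in mixed tumors, 10.50 to 11.49 in undifferentiated/spindle tumors and 7.61 to 10.79 in poorly differentiated tumors, and its part in these results was not tested.

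Loss of *Rb1* beside *Trp53* was not accompanied by a called change in any member. Between the 8 double-deficient and the 7 Trp53ΔEC tumors, 0 of 39 members passed an adjusted p of 0.05 or 0.1 (0.033% and 0.055% of all genes), and 0 had an unadjusted p under 0.05 (5.29% of all genes). A test with unequal variances called 0 as well. The smallest p-values belonged to *Ccr6*, *Ccl17*, *Ccl22* and *Cxcr2*. *Ccr6* had a lowest, median and highest value of 5.12, 6.30 and 7.60 in double-deficient tumors and 5.26, 5.51 and 6.17 in Trp53ΔEC tumors (0.68, SE 0.34). *Ccl17* had 4.87, 5.47 and 6.85 in double-deficient tumors and 4.98, 5.24 and 5.35 in Trp53ΔEC tumors (0.45, SE 0.24). *Ccl22* had 4.94, 5.69 and 6.61 in double-deficient tumors and 4.92, 5.48 and 5.74 in Trp53ΔEC tumors (0.40, SE 0.22). For these 3 genes the genotypes overlapped, and the highest values were all in double-deficient tumors. *Cxcr2* had 4.19, 5.44 and 7.19 in double-deficient tumors and 3.77, 4.34 and 5.85 in Trp53ΔEC tumors (0.87, SE 0.49), where 4 of 8 double-deficient and 2 of 7 Trp53ΔEC tumors were poorly differentiated. All 4 had an adjusted p of 0.954. The 95% intervals were wide, with half-widths from 0.23 to 3.55 and a median of 1.42: for 16 members they reached beyond 1 in both directions, and for 8 they stayed under 1 in size.

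**Figure D5:**
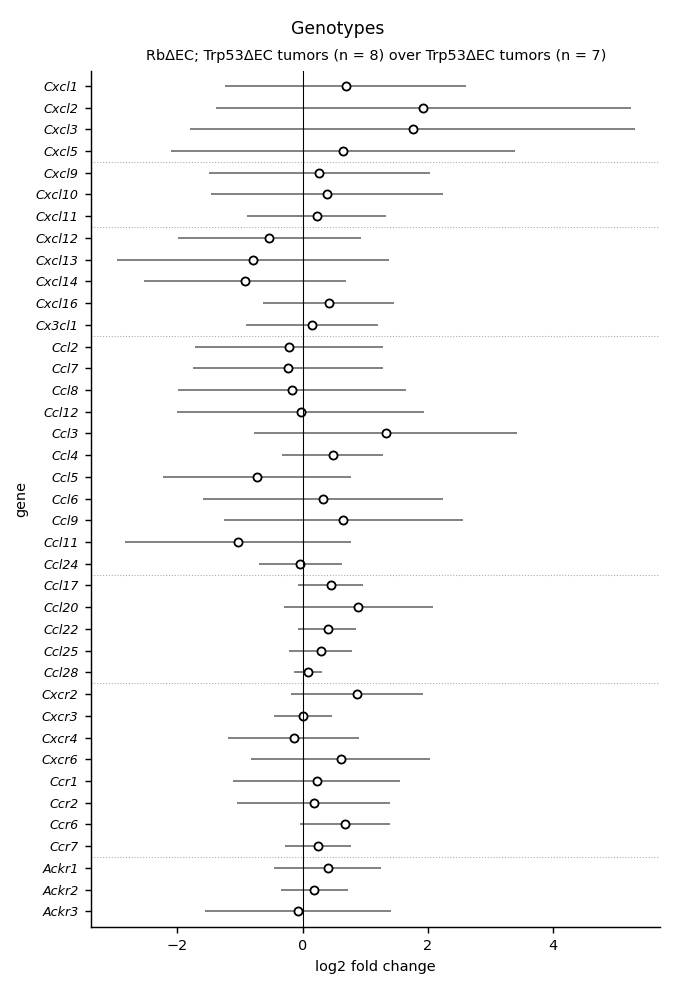
Log2 fold change (horizontal axis) of each member in RbΔEC; Trp53ΔEC tumors (n = 8) over Trp53ΔEC tumors (n = 7), with bars for the 95% interval and open points because no adjusted p was under 0.05. All 39 intervals include 0, and the widest belong to *Cxcl2* and *Cxcl3*.

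The grade differences had the same direction within each genotype for all 14 members called by grade. *Cxcl2* differed by −5.09 in double-deficient tumors (3 undifferentiated/spindle, 4 poorly differentiated) and by −7.06 in Trp53ΔEC tumors (2 of each grade), and *Ccl2* by 2.34 and 2.02. The direction within genotypes is in part fixed by the pooled difference that chose these genes. The interaction of grade with genotype gave 0 called members and 0 called genes (0% of 18193), and 3 members had an unadjusted p under 0.05 (*Ccr2*, *Cxcl14* and *Ackr1*, lowest p 0.0422, adjusted p = 0.7).

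Genes around the family were read from lists chosen with earlier results of these data known. Of all genes, 17.7% were higher and 18% lower in tumors than in skin. By grade, 12.7% of all genes were higher and 9.9% lower. Of 17 further chemokine and receptor genes, *Cx3cr1*, the receptor of *Cx3cl1* on monocytes and macrophages, was the only one called by grade (3.61, adjusted p = 2.35e-06), and *Pf4* (−1.53) and *Xcl1* (−0.39) were lower in tumors. Of 25 inducers and NF-kB regulators, 6 were higher in tumors than in skin, with *Ptgs2* (4.38), the inducible cyclooxygenase, *Il6* (3.14), *Il1b* (2.75) and *Nfkbiz* (1.67), a cofactor of NF-kB, changing most. By grade 10 of the 25 were lower and 1 higher in undifferentiated/spindle carcinomas: *Il1a* and *Il1b* (both −3.44), *Csf3* (−2.61), which drives neutrophil production, and *Nfkbiz* (−2.02) fell, and *Csf1* (2.18), the macrophage growth factor, rose. Of 10 interferon signaling genes, *Irf8* (1.38), *Ifnar1* (0.91) and *Ifnar2* (0.85) were higher by grade and none was lower. Of 21 genes of signal transduction and processing, 6 were higher by grade, among them *Gng2* (1.52) and *Was* (1.29), and *Dpp4*, the protease that trims chemokines, was lower (−1.25). Over all tumors 4 of these 21 were higher, among them *Fpr2* (3.18), a formyl peptide receptor of neutrophils, and 5 were lower, among them *Dpp4* (−3.37). None of the genes in these lists was called between genotypes.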

How the data were processed

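Chemokine and receptor genes were read in 15 skin tumors and 5 normal skin samples. The log2 values were deposited by the authors, who had background-corrected, normalized and summarized the probes of MOE430 2.0 arrays by RMA (software version not stated in the labels or the methods). RMA puts all arrays on one distribution, so values are relative, and without detection calls a low value was not shown to be background. Samples were grouped by labelled genotype and histological subtype, and undifferentiated and spindle cell carcinomas were pooled. The labels do not say whether tumors came from separate mice, so the p-values refer to the spread between samples only, and part of that spread may be technical.

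Of 45101 probesets, 64 array controls were left out, 34945 had 1 gene symbol, 932 several and 9160 none. The brightest probeset of each gene over 20 arrays gave 18193 genes. Groups were compared with limma 3.58.1 (lmFit, eBayes) in R 4.3.3, two-sided, Benjamini-Hochberg over all genes. Classes were set against skin in 1 fit with a mean per class, whose contrasts share the skin samples. The methods name a t-test without saying how variances were treated. As an alternative a t-test with unequal variances was run, for tumors against skin also at the adjusted p of 3e-07 in the methods, whose second criterion there, from SAM, was not applied. Other alternatives were the median of a gene's probesets, centring each array on its median, testing only genes at 6 or more on at least 5 arrays, a mean-variance trend, all 45037 probesets tested, the replicate number as a block, genotype or class as a covariate, other sets of tumors and leaving out each array. Counts, ranges and motif matches were computed in Python 3.11.15 (pandas 2.3.3, numpy 2.4.6) and drawn with matplotlib 3.10.9. The fits were tested on simulated data.

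The members, lists and tests were chosen with earlier results of these data known. Values in every sample were given for up to 8 called members with the largest change in tumors against skin and by grade, and for the 4 with the smallest p between genotypes. Of each pathway list up to 4 called genes, and of each marker list up to 2, were named, and further genes were named after their values were seen. Marker lists without a value above were B and plasma cells (0 of 6 called for tumors against skin and by grade), fibroblasts (4 of 8 lower in tumors, 1 higher by grade) and Langerhans and dendritic cells (1 higher and 3 lower of 9 in tumors, 2 lower by grade). List genes missing from the annotation were not analysed here, nor were protein sequences.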

Additional observations from a re-analysis of the deposited data

Results flagged for a closer look

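Some samples lay far from the others of their group by Dixon's ratio, in 16 of 234 combinations of a member and a group of 4 to 8 samples, where 1 in 20 (11.7) would be marked by chance. Groups by class and by genotype share samples. Double-deficient tumor 4 was marked for 3 members: *Cxcl3* (10.39, the other mixed tumors 3.64 to 4.49), *Ccl3* (9.05, the others 3.74 to 4.44) and *Cxcl16* (7.31, the other double-deficient tumors 9.51 to 11.07). Skin sample 1 was marked for *Cxcl1* (7.67, other skin 6.57 to 6.69), *Cxcl11* (4.49, other skin 4.66 to 4.73) and *Ccl6* (10.47, other skin 11.85 to 12.15). Trp53ΔEC tumor 4 was marked for *Ccl24* (8.39, the other Trp53ΔEC tumors 6.08 to 6.50) and *Cxcr3* (6.45, the other poorly differentiated carcinomas 5.80 to 6.03). Double-deficient tumor 7 was marked for *Ccl17* (6.29) and *Ccr7* (5.72) among poorly differentiated carcinomas. For *Ackr3*, double-deficient tumor 3 (9.49), Trp53ΔEC tumor 5 (6.68) and skin sample 4 (9.48) were each the lowest of their group. The others were double-deficient tumor 2 for *Ccl24* (7.51), Trp53ΔEC tumor 6 for *Ccl20* (7.28) and Trp53ΔEC tumor 1 for *Ccl25* (5.63, the other undifferentiated/spindle carcinomas 6.45 to 6.71).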

How the results depend on the processing

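Over 602 values of single members under the alternatives other than leaving out each array, 536 kept direction and side of the threshold, 64 lost the call and 2 reversed. Those kept include *Ccr6*, *Ccl17*, *Ccl22* and *Cxcr2* between genotypes, which were not called to begin with. The calls lost on leaving out an array are not in this count. The reversals were *Ccl28* with the median of its probesets, in tumors against skin (0.00) and in poorly differentiated carcinomas against skin (0.15). For tumors against skin, the 8 lower members (18% of all genes) became 13 by the t-test with unequal variances (21.9% of all genes) and 5 with the replicate number as a block (16.7%). By the t-test with unequal variances at the methods' threshold of 3e-07 there were 0 higher and 0 lower (1.28% and 1.32% of all genes). Without each array in turn, 5 to 9 were lower (5 without skin sample 2). By grade, the 9 lower members (9.9% of all genes) became 5 by the t-test with unequal variances (7.88%) and 5 in double-deficient tumors alone (7.34%), where fewer samples were tested, and 5 to 8 without each array (5 without Trp53ΔEC tumor 1). The 5 higher (12.7%) became 0 when mixed tumors were counted with undifferentiated/spindle carcinomas (8.09%), and 5 to 8 without each array (8 without Trp53ΔEC tumor 1 or 4). Against skin, 3 to 6 members were higher in mixed tumors (3 without Trp53ΔEC tumor 7), and 0 to 1 against undifferentiated/spindle carcinomas (0 without Trp53ΔEC tumor 3). Where no construction is named, the cause was not tested. The replicate numbers did not pair samples: same-numbered tumors of both genotypes correlated between -0.478 and 0.64 (7 pairs), and tumors and skin between -0.124 and 0.104 (10 pairs). With the replicate block *Cxcl3*, *Ccl3*, *Ccl6*, *Ccl9* and *Cxcr3* lost their call in tumors against skin, and between genotypes it gave 0 called members, as did every other alternative. By grade the block, added after the values were seen, gave 0 higher and 0 lower (0.154% and 0.407% of all genes), with the direction kept for all 14 called members: the grades share only number 2, so it rests on that pair of tumors and few residual degrees of freedom. The number of arrays limits the precision.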
